A study of Sus scrofa with 4 samples.

Results

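The comparison described here sets the *longissimus dorsi* (LD, the long loin muscle of the back) of 60 d old Laiwu pigs against that of 120 d old pigs, in 6 of the 12 RNA-seq libraries of the series. Its members were taken by the age label of each sample: each age is 1 deposited sample with 3 libraries, which gives 3 libraries at 60 d and 3 at 120 d. The methods name 3 pigs per age, so each library is taken as 1 pig, although the columns carry no pig names. All of these animals were castrated males of the Laiwu breed, an indigenous fatty pig of North China, with the genotype given as wild type, and they were kept under similar housing and feed. The study followed LD muscle at 60, 120, 240 and 400 d. By the sample labels, the question of this pair of ages is what differs between the youngest muscle and the next stage, before the older ages. The muscle was sampled whole, so fibres, fat cells, vessels, nerve, blood and immune cells all gave RNA, and fewer cells of a type and less RNA per cell cannot be told apart. The ages used are those of the sample labels. The study's supplementary list of differentially expressed genes gives these same libraries other ages. Its FPKM column for 240 d matched the mean of the libraries labelled 60 d with a median absolute log2 difference of 0.0195 over 1025 genes, and its column for 400 d matched the libraries labelled 120 d with 0.0195 over 250 genes. For its 240 d and 400 d columns, the other pairings with a label differed by at least 0.523. The list's 60 d column matched the libraries labelled 400 d (0.0194 over 206 genes), and its 120 d column those labelled 240 d (0.0196 over 1006 genes). By that list this pair thus holds the oldest stages and not the youngest. The order within the pair, and so the sign of the contrast, is the same under both sets of ages. Statements below that set this pair against 240 d or 400 d hold by the sample labels only. The study's printed changes of the fat synthesis genes *FASN* and *SCD* from 240 d to 400 d are likewise close to those between the libraries labelled 60 d and 120 d. In the study's table of mapped reads, by contrast, the deepest library has the same age as under the sample labels. Which set of ages is right was not settled here.

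Porcine LD muscle is a predominantly fast, glycolytic muscle. In the months after weaning its fibres grow by hypertrophy, and the share of oxidative fibres, the mitochondrial content and the fuel use of the fibres shift. Mitochondria supply oxidative fibres with ATP through the tricarboxylic acid (TCA) cycle and the respiratory chain, whose complexes I to IV pass electrons to oxygen and whose proton gradient drives ATP synthase. Some subunits of complexes I to IV carry iron, as heme or iron-sulfur clusters. Skeletal muscle also has its own circadian clock, in which BMAL1 and CLOCK activate the *PER*, *CRY*, *NR1D* and *BHLHE* repressors, and it responds quickly to contraction, hormones and feeding through inducible transcription factors.

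The total count per library was 9713813 to 12159305, and 15725 to 16355 features had a count. A floor of 3 counts was 0.247 to 0.309 CPM. Pearson's r of log2(FPKM + 0.1), across 12847 features that reached 1 FPKM in 1 or more of the 6 libraries, was 0.889 to 0.920 between libraries at 60 d, 0.918 to 0.948 at 120 d and 0.889 to 0.927 between the ages. Libraries of the same age were therefore not always more alike than libraries of different ages. Several libraries stood apart in gene groups that are given below with and without them: 60 d library 1 in extracellular matrix and hemoglobin, 60 d library 2 in fatty acid synthesis, 60 d library 3 in heat shock genes, and 120 d library 2 in leukocyte and interferon genes. The feature named *ACTA1* (skeletal muscle alpha-actin, chr14:65236451-65239189) was listed at 0 in 5 of the 6 libraries and at 46901 FPKM in 120 d library 2, so no fold is given for it. The other markers of skeletal muscle were high in every library. The 10 muscle identity features without it summed to between 62591 and 115775 FPKM in each library, and the sums of the ages overlapped (exact two-sided permutation test, p = 0.5, with 0.1 as the smallest p that 3 against 3 libraries allow).

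With an adjusted p under 0.01 and a log2 change of at least 1 in size as the threshold, no feature passed the quasi-likelihood test of edgeR. This is 0 of 12945 features tested (0%), those with a mean of at least 10 counts at either age. The smallest Benjamini-Hochberg adjusted p of this test was 0.208. At an unadjusted p under 0.05, 970 features (7.49%) were found. The DESeq2 Wald test passed 17 features (0.131%), 10 higher and 7 lower at 120 d, of which 9 have a symbol. The description below therefore rests on a second count, the features that separate the ages: those whose 3 libraries of 1 age all lie above the 3 of the other on FPKM. They numbered 1537, or 11.9% of the features tested, with 806 (6.23%) higher and 731 (5.65%) lower at 120 d. A symbol was found for 555 and 460 of them. Separation is a description and not a test. Full separation of 3 against 3 libraries has an exact two-sided permutation p of 0.1. With no difference between the ages, a share of about 0.1 of the features would thus separate on average, close to the 11.9% found. Most of this count can therefore arise with no difference between the ages.

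Between the other ages more features separated. The share was 18.2% for 240 d against 400 d, 32.1% for 60 d against 240 d, 39.6% for 60 d against 400 d, 35.4% for 120 d against 240 d and 40.8% for 120 d against 400 d. The pair of 60 d and 120 d thus had the lowest share of the 6 pairs. The gap between the ages, taken as the lowest library of the higher age over the highest library of the lower age (each FPKM + 0.1), was mostly narrow. Its median was 1.10 in both directions, and it reached 1.5 for 40 features higher and 58 lower at 120 d. The mean FPKM differed by at least 2-fold for 116 of the features higher and 136 of those lower. The median log2 change over all features tested was -0.01.

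**Figure D1:**
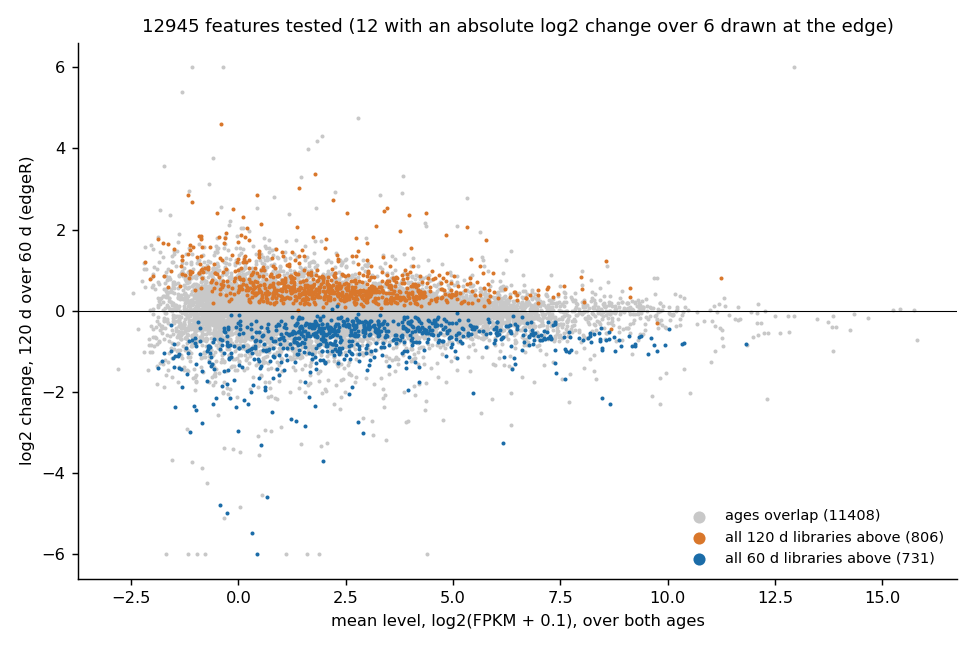
Each point is 1 of the 12945 features tested, with its mean level over both ages as log2(FPKM + 0.1) on the horizontal axis and its edgeR log2 change, 120 d over 60 d, on the vertical axis. Orange and blue points are the 806 and 731 features whose libraries separate the ages, and grey points those whose ages overlap. Separating features lie among grey ones of equal or larger change.

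The gene with a symbol and the widest gap was *KLF10* (ENSSSCG00000027480, chr4:37443340-37453430 in Sscrofa10.2), a zinc finger transcription factor induced by TGF-beta. Its FPKM was 1.12, 1.13 and 1.26 in the 60 d libraries and 4.97, 9.39 and 9.06 in the 120 d libraries. The lowest library at 120 d was thus well above the highest at 60 d, and the mean was 6.69-fold higher. The log2 change of its counts was 2.73 ± 0.30 (SE, n = 3 per age), with a Benjamini-Hochberg adjusted p of 0.208 by edgeR's quasi-likelihood test, and 2.58 to 2.97 with any 1 library left out. *CREM* (ENSSSCG00000011106, chr10:63438270-63504728), a transcription factor of the cAMP response, was at 16.5, 22.6 and 34.9 FPKM at 60 d and at 79.9, 85.3 and 84.8 at 120 d. The 3 libraries at 120 d lay close together and far above those at 60 d, with a log2 change of 1.73 ± 0.29 and an adjusted p of 0.460 in the same edgeR test. The mean FPKM of *KLF10* was 1.71 at 240 d and 1.57 at 400 d, and that of *CREM* 20.4 and 4.85. By the sample labels, both were thus highest at 120 d among the ages of the series.

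*PGM2L1*, *IRS1* and *ARRDC4* also had wide gaps and passed the DESeq2 test. *PGM2L1* (ENSSSCG00000014838, chr9:9525558-9601027), which makes glucose 1,6-bisphosphate, was at 2.88, 3.92 and 4.61 FPKM at 60 d and at 11.01, 13.2 and 11.6 at 120 d. *IRS1* (ENSSSCG00000025729, chr15:142086244-142089969), the docking protein of the insulin and IGF1 receptors, was at 10.8, 8.38 and 5.61 FPKM and then at 19.9, 29.2 and 23.5. *ARRDC4* (ENSSSCG00000002252, chr7:87586099-87598954), an arrestin-like protein related to TXNIP that lowers glucose uptake, was at 8.03, 2.47 and 5.76 FPKM and then at 17.3, 33.2 and 26.5. In each of these genes the ages did not overlap. The log2 changes were 1.67 ± 0.24, 1.54 ± 0.28 and 2.36 ± 0.43, with adjusted p of 0.314, 0.593 and 0.593 in edgeR's quasi-likelihood test. With the DESeq2 Wald test, adjusted p was 3e-10 for *KLF10*, 2.1e-06 for *PGM2L1*, 5.3e-05 for *ARRDC4*, 7.4e-05 for *CREM* and 0.0013 for *IRS1*. The mean of *PGM2L1* was higher still at 240 d (17.5 FPKM) and 400 d (23.5 FPKM), whereas that of *ARRDC4* was 4.35 and 3.65.

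The rest of the 12 named genes with the widest gaps at 120 d were *MEOX1*, *COL8A1*, *TMEM100*, *BHLHE41*, *KCNH2*, *SETBP1* and *GRAMD1B*. *MEOX1*, a homeobox factor of the somite, was at 2.84, 3.19 and 2.31 FPKM at 60 d and at 7.60, 7.07 and 6.10 at 120 d. *SETBP1*, which binds the SET oncoprotein, was at 0.604, 0.605 and 0.610 FPKM and then at 1.27, 1.45 and 1.13. Both were low-level genes whose libraries of 1 age were close together. *KCNH2*, a voltage-gated potassium channel, was at 2.10, 1.65 and 2.17 FPKM and then at 3.83, 4.89 and 8.83, with 120 d library 3 the highest. *TMEM100*, a membrane protein of the BMP pathway in vessels, was at 5.86, 3.61 and 7.21 FPKM and then at 13.3, 36.5 and 14.7. Its log2 change of 1.96 ± 0.45 was 1.33 without 120 d library 2. *COL8A1*, a short-chain collagen of vessels, was 3.60-fold higher on mean FPKM, but its counts changed by only 0.61 ± 0.31 on the log2 scale, so its gap rests on the FPKM estimate. *SNCG*, a synuclein of nerve and fat cells, passed the DESeq2 test (adjusted p = 0.0098) without separating the ages: it was at 6.73, 0.406 and 7.39 FPKM at 120 d, against 0.283 to 0.715 at 60 d.

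**Figure D2:**
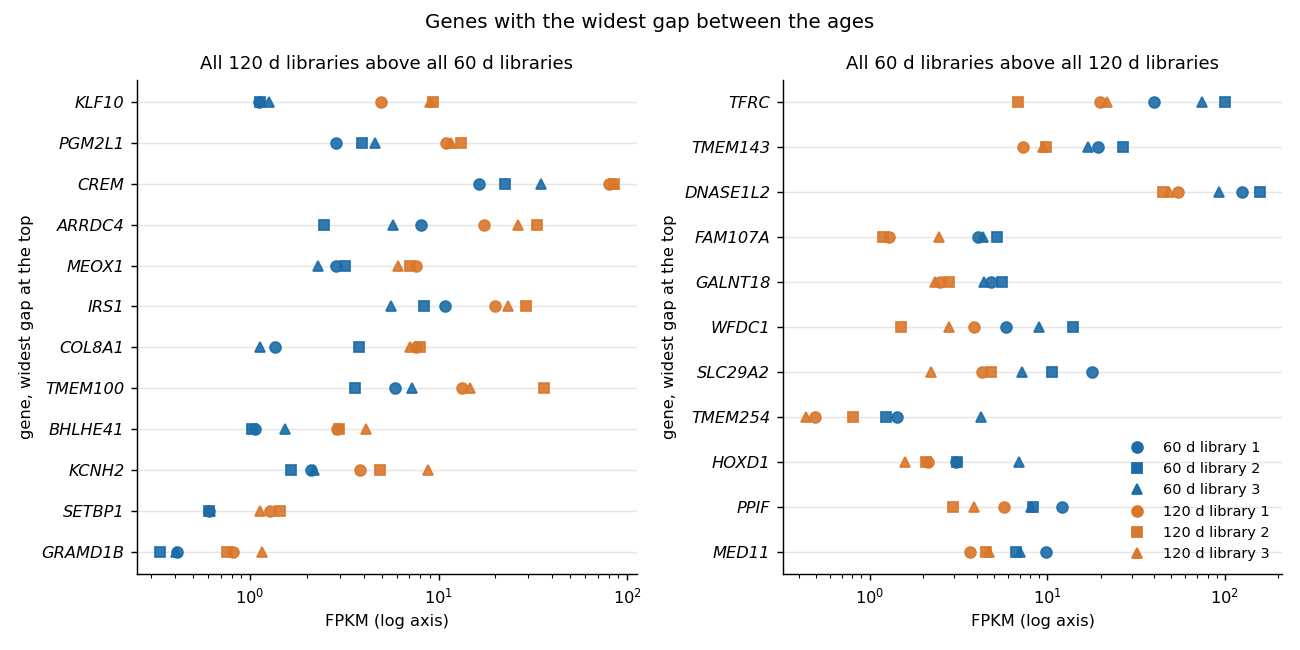
FPKM of named genes with the widest gaps in each direction, on a log axis, with 1 point for each of the 3 libraries at 60 d and at 120 d. The points of the ages do not overlap in any gene shown. *KLF10* runs from at most 1.26 FPKM at 60 d to at least 4.97 at 120 d, and *TFRC* from at least 40.2 to at most 21.8.

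Among the genes lower at 120 d, the widest gaps were narrower, at most 1.84 for a gene with a symbol against 3.74 in the other direction. *TFRC* (ENSSSCG00000011848, chr13:143408416-143437993), the receptor that takes up transferrin-bound iron, was at 40.2, 100.03 and 74.1 FPKM at 60 d and at 19.8, 6.87 and 21.8 at 120 d. All 3 libraries at 60 d lay above the 3 at 120 d, and the mean was 4.42-fold higher at 60 d. The log2 change was -2.03 ± 0.50, with an adjusted p of 0.665 in edgeR's quasi-likelihood test. *DNASE1L2* (ENSSSCG00000024587), a DNase I-like nuclease, was at 124.6, 157 and 92.4 FPKM and then at 54.6, 44.6 and 48.4. *TMEM143* (ENSSSCG00000030544), a transmembrane protein, was at 19.2, 26.8 and 16.9 FPKM and then at 7.29, 9.85 and 9.41. These last genes were the only ones with a symbol lower at 120 d that passed the DESeq2 test, with adjusted p of 0.0025 and 0.0083, against 0.593 and 0.661 in the edgeR test.

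*PPIF*, the cyclophilin of the mitochondrial permeability pore, was at 12.2, 8.34 and 8.15 FPKM at 60 d and at 5.71, 2.94 and 3.85 at 120 d. *SLC29A2*, an equilibrative nucleoside transporter, was at 17.9, 10.7 and 7.24 FPKM and then at 4.27, 4.81 and 2.21. *FAM107A*, an actin-associated protein induced by stress, was at 4.06, 5.196 and 4.37 FPKM and then at 1.28, 1.18 and 2.44. Each was lower in all 3 libraries at 120 d, and the means of *FAM107A* at 240 d and 400 d, 5.57 and 5.96 FPKM, lay above its 60 d mean. *WFDC1*, a secreted protease inhibitor-like protein, was 3.53-fold higher at 60 d, and *TMEM254* was 3.99-fold higher with 60 d library 3 well above the other 60 d libraries. *GALNT18*, *HOXD1* and *MED11* were also among the genes with the widest gaps, with log2 changes of -0.99, -1.18 and -0.84. Of features without a symbol, ENSSSCG00000006655 was at 3.49, 4.25 and 2.14 FPKM at 60 d and at 18.4, 16.3 and 21.0 at 120 d. The newly assembled pig_newGene_558 was at 13.4, 16.6 and 9.17 FPKM and then at 0.453, 2.23 and 2.26. Both passed the DESeq2 test, with adjusted p of 1.1e-08 and 2.4e-06.

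The nuclear-encoded subunits of the respiratory chain and ATP synthase were lower at 120 d as a group. This list, like those of the TCA cycle, ribosomal proteins, glycolysis, iron and heme, and mitochondrial DNA, was chosen after values were seen, so its counts are a description. All 45 subunits tested had a log2 change below 0, from -0.05 for *COX7A2L* to -0.998 for *NDUFV1*, and the median was -0.67 against -0.01 over all features. In 24 of the 45 (53.3%) the 60 d libraries all lay above the 120 d libraries, against 5.65% of all features, and none separated the other way. Unadjusted p was under 0.05 for 32, and the smallest adjusted p of edgeR's quasi-likelihood test was 0.665. The gaps of the separating subunits were narrow, from 1.004 to 1.33 with a median of 1.11.

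The 5 parts of the chain were alike in direction. In complex I, which oxidises NADH, 11 of 21 subunits separated with a median log2 change of -0.69. In complex II it was 1 of 4 (-0.59), in complex III with cytochrome c 4 of 7 (-0.63), in complex IV 3 of 7 (-0.65) and in ATP synthase 5 of 6 (-0.88). *NDUFV1*, the NADH-binding subunit, was at 297, 308 and 192 FPKM at 60 d and at 155, 126 and 118 at 120 d, a log2 change of -0.998 ± 0.26. *COX4I1*, a regulatory subunit of cytochrome c oxidase, was at 1517, 1347 and 923 FPKM and then at 859, 617 and 614. *ATP5MC1*, a subunit of the rotating c-ring, was at 1462, 1156 and 804 FPKM and then at 800, 446 and 466. In each of them 60 d library 3 was the lowest at its age and 120 d library 1 the highest at its own. *UQCRC1*, a core subunit of complex III, had a log2 change of -0.97 ± 0.27, and *SDHA*, the flavoprotein of complex II, -0.67 ± 0.26.

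The summed FPKM of the 45 subunits was 18912, 16200 and 11877 in the 60 d libraries and 11214, 7964 and 8709 in the 120 d libraries. The lowest sum at 60 d was thus close to the highest at 120 d. The highest level of a subunit was in 60 d library 1 for 35, in library 2 for 10 and in library 3 for none. At 120 d, library 2 was the lowest library for 30, library 3 for 12 and library 1 for 1. The median log2 change was -0.54 without 60 d library 1 and -0.79 without 60 d library 3. The direction therefore held with any 1 library left out. Without 60 d library 3 or without 120 d library 1 the separating subunits numbered 41 and 40, but leaving out a library can only keep or raise this number. The summed FPKM of the slow fibre list moved with these libraries, at 20817, 13301 and 7360 at 60 d and at 9883, 9564 and 7230 at 120 d, and its part in the lower subunit levels was not tested. The median log2 change of the 6 slow fibre genes tested was -0.44, and -0.03 without 60 d library 1. At 240 d the sums were 10484, 7555 and 10128, and at 400 d 9273, 9129 and 9783. The mean at 240 d lay below the 60 d mean for 43 of the 45 subunits and above the 120 d mean for 22, and at 400 d for 43 and 20.

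**Figure D3:**
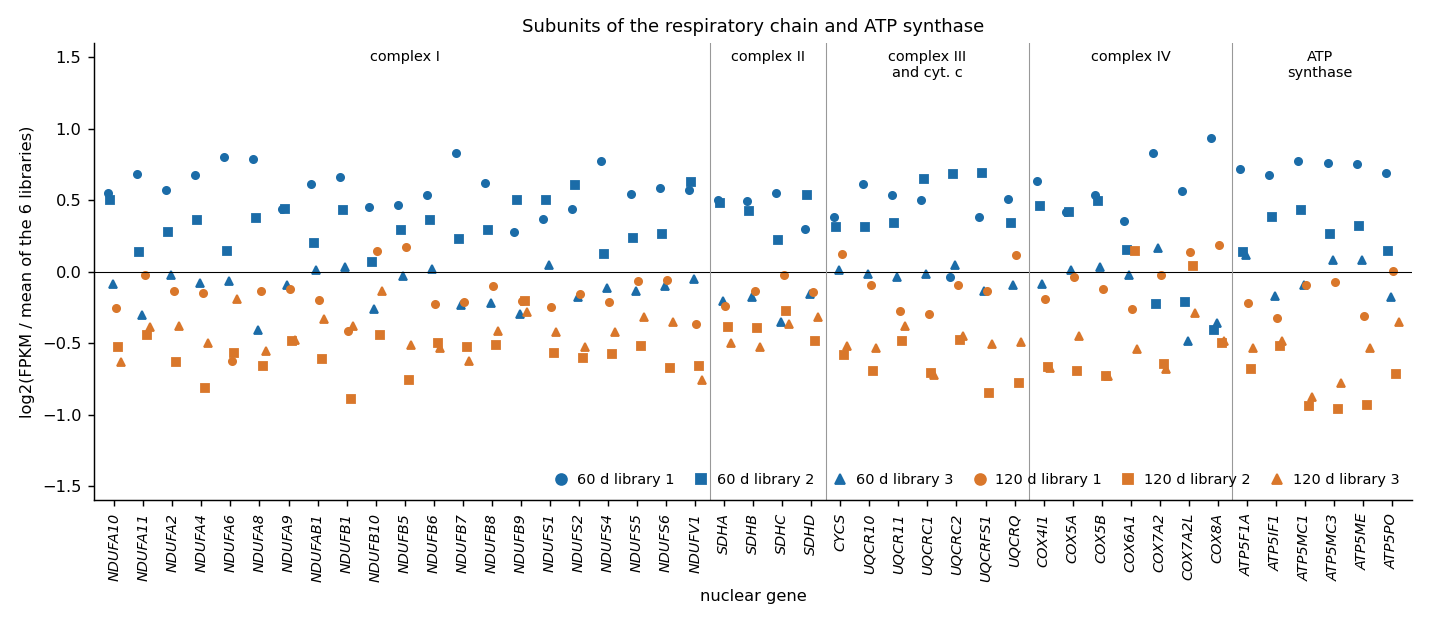
Log2 of the FPKM over the mean of the 6 libraries for each nuclear-encoded subunit of the respiratory chain and ATP synthase, grouped by complex, with 1 point per library and the ages marked by colour. Each of the 45 subunits has a log2 change below 0, and in 24 of them the 3 libraries at 60 d all lie above the 3 at 120 d.

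The enzymes of the TCA cycle and pyruvate dehydrogenase had 10 of 16 lower in all libraries at 120 d (62.5%, against 5.65% of all features), none higher and a median log2 change of -0.50. *MDH2*, mitochondrial malate dehydrogenase, was at 471, 437 and 386 FPKM at 60 d and at 312, 216 and 245 at 120 d. All 3 libraries at 60 d lay above those at 120 d. Others that separated included *DLAT*, *DLST*, *FH*, *IDH3G*, *OGDH*, *PDHB*, *SUCLA2* and *SUCLG2*. Of 45 mitochondrial ribosomal proteins 9 separated (20%, against 5.65% of all features), all lower at 120 d, with a median of -0.22 that was -0.10 without 60 d library 1, and of 29 cytosolic ribosomal proteins 1 did, with a median of 0.09 that was -0.02 without 60 d library 2 or 3. The 10 features of mitochondrial DNA had a median of -0.55, which was -0.34 without 60 d library 1 and -0.82 without 60 d library 3, but none separated: their summed FPKM was 192752, 155396 and 82462 at 60 d and 102911, 67392 and 91645 at 120 d. Of the 15 glycolytic genes only *HK2* (hexokinase 2, higher at 120 d) and *PGAM1* (phosphoglycerate mutase, lower) separated. This is 13.3% in both directions, against 11.9% of all features. *HK2* was at 3.15, 2.49 and 6.97 FPKM and then at 9.23, 9.42 and 9.74.

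Of 18 iron and heme genes tested, 7 were lower and 2 higher in all libraries at 120 d, against 5.65% and 6.23% of all features. The list was drawn up after values were seen and holds *TFRC*. Its median log2 change was -0.29, and -0.15 without 60 d library 1. Besides *TFRC*, *ALAS1*, the first enzyme of heme synthesis, was at 44.7, 41.3 and 37.7 FPKM at 60 d and at 32.1, 20.6 and 24.4 at 120 d. *ACO1*, the cytosolic aconitase that binds iron-responsive RNA when it lacks its cluster, was at 9.81, 17.9 and 12.4 FPKM and then at 6.37, 7.61 and 7.94. *HMOX1*, which degrades heme, was at 18.7, 24.9 and 25.8 FPKM and then at 13.0, 15.0 and 13.1. Each was lower in all libraries at 120 d, as were *HMOX2*, *STEAP3* and *TF*. The 2 higher genes were *FTL*, the ferritin light chain, and *IREB2*. The erythroid markers *HBB* and *ALAS2* were also lower at 120 d. Of the 3 erythroid markers tested 66.7% separated, against 5.65% of all features. The part that blood in the samples had in the iron genes was not tested. *HBB* (beta globin) was at 1158, 355 and 216 FPKM and then at 215, 30.5 and 139, so its ages barely separated. Its log2 change was -2.16 ± 0.78, and -1.14 without 60 d library 1.

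In the circadian clock, 4 of 12 genes (33.3%) were higher in all libraries at 120 d, against 6.23% of all features, and none was lower. The median log2 change was 0.30. *BHLHE41*, a repressor of CLOCK and BMAL1, was at 1.07, 1.02 and 1.54 FPKM at 60 d and at 2.89, 2.96 and 4.14 at 120 d. *PER1*, a core repressor that also responds to glucocorticoid, was at 15.9, 39.0 and 17.9 FPKM and then at 64.8, 65.9 and 51.9. Both were clear of overlap, and *BHLHE41* passed the DESeq2 test (adjusted p = 0.0088) but not edgeR's quasi-likelihood test (adjusted p = 0.593). *CRY2* was at 18.1, 42.7 and 33.7 FPKM and then at 55.9, 46.5 and 56.6. *NR1D2*, a heme-binding nuclear receptor of the clock, was at 10.6, 18.4 and 22.3 FPKM and then at 28.5, 30.5 and 28.8. In both, 60 d library 1 was the lowest, and without it the log2 changes fell from 0.81 to 0.54 and from 0.78 to 0.51, and the median of the list to 0.08. The ages overlapped for *BHLHE40*, *PER2*, *CRY1* and *NPAS2*, with log2 changes of 1.47 ± 0.50, 0.46 ± 0.26, -0.68 ± 0.38 and -1.45 ± 0.59. The hour of sampling is not given in the labels or methods, so an age and an hour of day cannot be told apart.

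**Figure D4:**
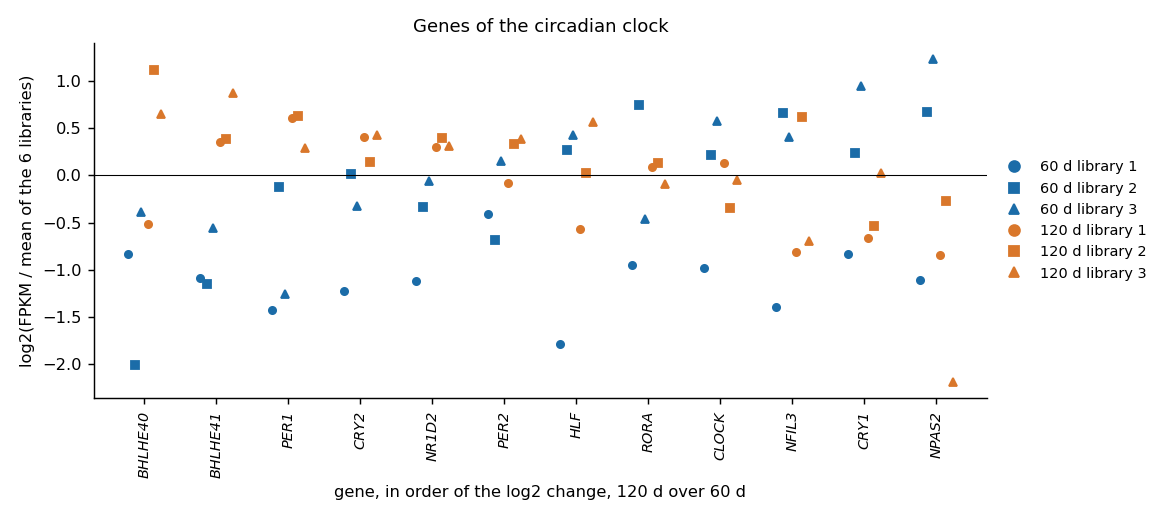
Log2 of the FPKM over the mean of the 6 libraries for the 12 clock genes tested, in order of their log2 change, with 1 point per library and the ages marked by colour. *BHLHE41*, *PER1*, *CRY2* and *NR1D2* are higher in all 3 libraries at 120 d, and the points of the ages overlap in the other genes.

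Among 18 immediate early genes, which respond within minutes to contraction or stress, *NR4A3* and *NR4A1* were higher in all libraries at 120 d (11.1%, against 6.23% of all features). *NR4A3*, an orphan nuclear receptor induced by exercise and cAMP, was at 7.13, 4.70 and 33.7 FPKM at 60 d and at 80.1, 62.6 and 50.2 at 120 d. Its log2 change was 2.07 ± 0.68, and 3.36 without 60 d library 3. *NR4A1* was at 408, 54.2 and 215 FPKM and then at 589, 570 and 413. The ages of both did not overlap, but the 60 d libraries differed widely. The list median was 0.28, and -0.23 without 120 d library 2. The heat shock list had a median of -0.63 with no member separating, and -0.14 without 60 d library 3, where *BAG3*, a co-chaperone, was at 1112 FPKM against 100 and 251 in the other 60 d libraries.

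None of the 6 slow and 6 fast fibre genes tested separated the ages. The median log2 change of the slow fibre list was -0.44, and -0.03 without 60 d library 1. *MYL3*, the slow and cardiac essential light chain, was at 4275, 2983 and 1476 FPKM at 60 d and at 1477, 1267 and 847 at 120 d, so the lowest library at 60 d and the highest at 120 d were level. Its log2 change was -1.25 ± 0.42 with an adjusted p of 0.665 in edgeR's quasi-likelihood test, and -0.86 without 60 d library 1. The median was -0.29 for the fast fibre list, and -0.10 without 60 d library 3, and the 60 d libraries of *PVALB*, the calcium buffer of fast fibres, ran from 7.03 to 175 FPKM. *MYH8*, perinatal myosin, ranged from 3697 to 5978 FPKM in the 60 d libraries and from 3796 to 5655 in the 120 d libraries, and had a log2 change of -0.00 ± 0.36. Myosin heavy chain genes are near-identical copies whose reads may be split, so its level is uncertain. Of 7 fetal and regenerating fibre genes 1 was higher in all libraries at 120 d (14.3%, against 6.23% of all features), and the list median was -0.06.

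Among 15 myogenic and fusion factors, *MSTN* and *MEF2A* were higher in all libraries at 120 d (13.3%, against 6.23% of all features) and none was lower. The list median was 0.33, and 0.03 without 120 d library 2. *MSTN*, myostatin, the inhibitor of muscle growth, was at 3.36, 1.95 and 2.63 FPKM at 60 d and at 4.89, 8.66 and 17.9 at 120 d. The 120 d libraries were themselves far apart, and the log2 change of 1.79 ± 0.45 was 1.31 without 120 d library 3. *MEF2A*, a muscle transcription factor, was at 13.3, 14.3 and 14.1 FPKM and then at 17.6, 20.5 and 18.2. *MYOD1*, the myogenic master factor, overlapped between the ages, at 71.2, 43.2 and 59.0 FPKM against 41.2, 44.1 and 36.6, while its mean was 7.48 at 240 d and 10.4 at 400 d. In the IGF axis, *IRS1* was higher and *IGFBP4*, a binding protein that holds back IGF, was lower. They make up 25% of the 8 genes tested, against 11.9% of all features in both directions. *IGFBP4* was at 42.5, 31.2 and 47.1 FPKM and then at 18.8, 25.8 and 19.6, a log2 change of -0.90 ± 0.24, and its mean was 13.6 at 240 d and 7.60 at 400 d. *NCAM1*, a marker of regenerating and denervated fibres and the separating member of that list, was at 8.20, 7.28 and 6.43 FPKM and then at 14.4, 8.21 and 12.7.

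Fat and lipid genes mostly overlapped between 60 d and 120 d. None of 14 fatty acid synthesis genes, 16 fatty acid oxidation and fuel switch genes or 9 atrophy genes separated, with medians of -0.28, -0.14 and -0.07, the last of which was 0.24 without 60 d library 2. *FASN*, fatty acid synthase, was at 9.95, 93.7 and 27.2 FPKM at 60 d and at 8.93, 6.05 and 23.8 at 120 d. *SCD*, stearoyl-CoA desaturase, was at 11.2, 56.1 and 37.0 FPKM and then at 7.84, 3.68 and 32.0. *PDK4*, the kinase that shuts off pyruvate dehydrogenase in fasting, was at 4.05, 172 and 117 FPKM and then at 4.66, 49.2 and 11.5. In all of these the range among the 60 d pigs was wider than the difference between the means of the ages, and for *FASN* the log2 change of -1.76 ± 0.80 was -0.53 without 60 d library 2. *PPARG*, the master factor of fat cells, was at 3.58, 4.503 and 2.18 FPKM and then at 2.16, 3.93 and 2.55. Of 8 fat cell markers only *PLIN4*, a lipid droplet coat protein, separated, higher at 120 d (12.5%, against 6.23% of all features). *PLIN4* was at 12.5, 18.2 and 17.1 FPKM and then at 26.2, 28.1 and 22.6. Of 21 cholesterol synthesis genes, *FDFT1* (squalene synthase) was higher and *MVK* (mevalonate kinase) lower at 120 d (9.52% in both directions, against 11.9% of all features).

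Among markers of other cell types, those of leukocytes stood apart in a single library. Leukocyte markers summed to 267, 154 and 165 FPKM at 60 d and to 165, 586 and 223 at 120 d (exact two-sided permutation test, p = 0.5). Of 21 leukocyte genes 20 had a log2 change above 0, with a median of 1.003 that was 0.15 without 120 d library 2. *GBP1*, a guanylate-binding protein induced by interferon gamma (chr4:139618567-139667343), was at 5.90, 5.87 and 6.24 FPKM and then at 7.22, 90.3 and 6.97. It separated the ages, but its log2 change of 2.40 was 0.12 without 120 d library 2. The chemokine *CXCL9* (2.42, then 0.57) and the T cell kinase *LCK* (2.15, then 0.98) also depended on that library. The medians of antigen presentation and interferon genes, 0.67 and -0.01, were -0.17 and -0.66 without it.

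Erythroid markers summed to 1203, 383 and 254 FPKM and then to 241, 49.96 and 176 (exact two-sided permutation test, p = 0.1, the smallest possible). The fat cell and endothelium sums overlapped between the ages, with p of 0.8 and 0.6 in the same exact permutation test. Of 8 endothelium genes 2, *MMRN2* and *ESAM*, were lower in all libraries at 120 d (25%, against 5.65% of all features). Of 34 extracellular matrix genes only *COL6A1*, a collagen VI chain, separated, lower at 120 d (2.94%, against 5.65% of all features). The list median was -0.11, and 0.34 without 60 d library 1. None of 17 cell cycle genes separated, with a median of -0.23.

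**Figure D5:**
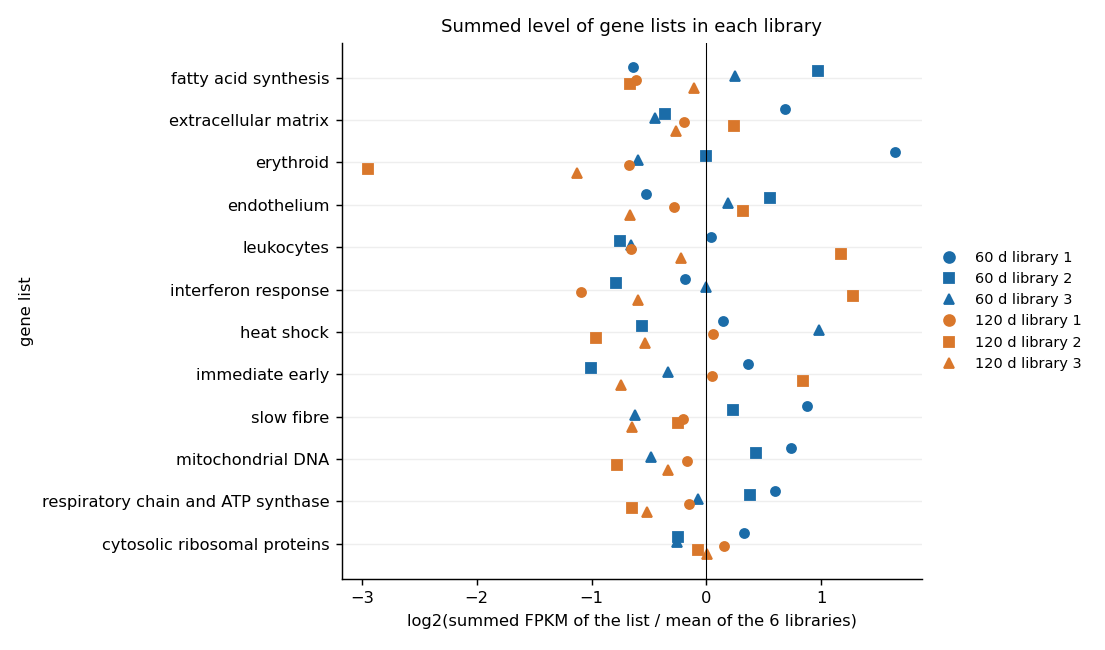
Log2 of the summed FPKM of gene lists over the mean of the 6 libraries, with 1 point for each library at 60 d and 120 d. Leukocyte and interferon lists are highest in 120 d library 2, heat shock in 60 d library 3, fatty acid synthesis in 60 d library 2 and the erythroid list in 60 d library 1.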

How the data were processed

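LD muscle RNA of 12 pigs was sequenced in 12 libraries, of which the 3 at 60 d and the 3 at 120 d are compared here. According to the study's methods, the authors mapped clean paired-end reads to Sscrofa10.2 with TopHat2 and estimated FPKM with Cufflinks. The submitters' processing notes list a mouse build instead, although the rows carry pig Ensembl identifiers. How the counts were made, the software versions and the use of strand are not given in the sources used here, so overlapping and antisense genes cannot be told apart. The authors deposited raw counts per gene and FPKM (fragments scaled to transcript length and mapped total) for each library. Columns of the authors' own fold changes and false discovery rates were not used.

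Counts were tested with edgeR 4.0.16 in R 4.3.3 (TMM, quasi-likelihood F test, Benjamini-Hochberg adjustment), on 12945 of 22658 features whose mean count reached 10 at either age, with thresholds of 0.01 for the adjusted p and 1 for the size of the log2 change. DESeq2 1.42.0 (Wald test) was the alternative. P-values measure the spread over 3 libraries per age, taken as 3 pigs. Levels are FPKM as deposited. A feature separates the ages when its 3 libraries of 1 age all lie above the 3 of the other. The gap has a pseudocount of 0.1. The test script was tested on simulated data. Python 3.11.15 with pandas 2.3.3, numpy 2.4.6, scipy 1.17.1 and matplotlib 3.10.9 was used otherwise. Floors cover counting error only, whereas the SE of a log2 change includes the spread between libraries.

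Symbols came from the study's supplementary tables (1151 identifiers) and a reference name table (10579). Another planned source, the breed comparison table, was dropped because 192 of its 387 checkable names differed from the reference. Named were the 12 features per direction with a symbol, the widest gap and a mean of at least 50 counts in the higher age, up to 20 passing each test, up to 4 separating members of each list by size of change (or up to 2 by level where fewer than 2 separated), and *FASN*, *SCD*, *PDK4*, *PPARG*, *MYOD1*, *PVALB* and *MYL3*. Further list members, *CXCL9* and the features without a symbol were added after values were seen. The members and lists were chosen with earlier results of these data known. Alternatives were DESeq2, no count filter, a minimum of 50 counts, CPM in place of FPKM, a gap of 1.5 and leaving out each library. A few items that meet these rules are not reported here.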

Additional observations from a re-analysis of the deposited data

How the results depend on the processing

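No paired analysis was possible because each library is taken as a different pig and the labels give the ages no shared replicate numbers. Against 0 features past the threshold in each direction, the DESeq2 Wald test gave 10 higher and 7 lower at 120 d, or 12 and 17 at a false discovery rate of 0.05, and edgeR without a count filter at 0.05 gave 1 higher. The counts by edgeR were 0 with any 1 library left out. A gap of at least 1.5 left 40 separating features higher and 58 lower. With 1 library left out, 1250 to 1895 features were higher and 1178 to 1922 lower, since fewer libraries are easier to separate. For the same reason the separating respiratory chain subunits ranged from 24 to 41, and the clock genes from 4 to 6. The median log2 change ranged from -0.79 to -0.54 for the respiratory chain and from 0.08 to 0.59 for the clock.

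Of 35 lists, 245 medians were recomputed and 238 moved by less than the spread between libraries. The ranges with 1 library left out were 0.15 to 1.32 for leukocytes, -0.17 to 0.92 for antigen presentation, -0.02 to 0.34 for ribosomal proteins, -2.74 to -1.14 for erythroid markers and -0.37 to -0.15 for iron and heme. Of 73 named genes, 61 kept their direction under every alternative run. With 1 library left out, the log2 change ranged from -0.22 to 0.016 for *ACADM*, -0.45 to 0.57 for *B2M*, -0.018 to 0.66 for *CCND2*, -0.42 to 1.23 for *CEBPD*, -0.50 to 0.28 for *CFD*, -0.32 to 0.61 for *COL3A1*, -0.17 to 0.18 for *MYH8*, -0.073 to 0.26 for *RPS21*, -0.018 to 0.39 for *RPS23*, -0.29 to 0.19 for *TNNC2*, -0.75 to 0.014 for *TNNT1* and -0.53 to 0.19 for *TRIM63*. On mean FPKM, *MYH8* was at 0.0021 and *RPS21* at -0.016. The cause was not tested. TMM and DESeq2 size factors differed by at most 0.0162 in the log2 change of a named gene. With 3 pigs per age, no exact test of a single value can go below 0.1, and genes near the floor of 3 counts per library have little precision.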
